A study of Mus musculus with 10 samples.

Results

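Messenger RNA of 8 integrin subunit genes (Itga4, Itgb1, Itgb7, Itgal, Itgb2, Itga6, Itgae and Itgb3) and of Selplg was followed in mouse spleen lymphocytes. The 9 genes were taken by symbol from 56893 genes counted, and all 9 were found. No selectin gene is among them: Selplg encodes PSGL-1, the ligand that selectins bind. Primary T cells and B cells carried CRISPR interference, in which a guide RNA brings an inactive Cas9 to a promoter to silence it, against Pou2f1, the gene of the octamer-binding factor Oct-1. The 5 groups were T cells labelled Mock, T cells with sgRNA-P1 (aimed at the P1 promoter), B cells labelled Mock, and B cells with sgRNA-P1 or with sgRNA-P2 (aimed at P2). Strain, age, the delivery of the guides, the time they acted, the way the cells were selected and what the mock cells received were not stated in the sources read.

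Integrins are pairs of an alpha and a beta chain that hold a cell to other cells or to matrix, and lymphocytes use them to stop on vessel walls, to enter tissue and to stay there. Each chain has set partners, some of them more than 1: alphaL with beta2 gives LFA-1, a receptor for ICAMs; alpha4 pairs with beta1 (VLA-4, for VCAM-1 and fibronectin) or with beta7 (the gut homing receptor for MAdCAM-1); alphaE pairs with beta7 (CD103, for E-cadherin); alpha6 pairs with beta1 to bind laminin; and beta3 pairs with alphav or, in platelets, with alphaIIb. PSGL-1 carries the sugars that P-selectin and other selectins hold while a cell rolls, before integrins arrest it.

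Each group has 2 deposited columns, labelled as replicates, but the columns were found to be proportional to each other. Over genes with at least 20 reads the mean chi-square per gene between them was 0.00231 to 0.00283, far under what separate counts of reads would give, so both columns were added up and used as 1 library. The 5 libraries held 28118839 to 71858511 reads. Levels are in CPM, reads of a gene with each library scaled to a common total of reads by the TMM method, and brackets hold 95% counting intervals, which say nothing of the spread between animals or cultures. The targeted gene was lower with each guide: Pou2f1 stood in T cells at 138 (mock) and 66.1 CPM (sgRNA-P1), and in B cells at 157 (mock), 91.1 (sgRNA-P1) and 86.5 CPM (sgRNA-P2). Markers followed the cell type labels: 10 T cell markers summed to 4719 to 4767 CPM in T libraries and 50.3 to 52.0 CPM in B libraries, nearly all of the latter from Lck, and 10 B cell markers summed to 11669 to 11811 CPM in B libraries and 18.7 to 19.1 CPM in T libraries.

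All 9 genes were higher in T cells than in B cells, and in none did the levels of the 2 T libraries overlap those of the 3 B libraries. The difference ran from 1.26-fold for Itga4 to 197-fold for Itgae between the mock libraries, with the other 7 between 2.34-fold and 8.86-fold. Of the 9, 8 passed a 1.5-fold rule between the mocks, all toward T cells; of all genes at 5 CPM or more, 37% passed it and 18.6% did so toward T cells. Their median log2 fold change was 1.89, against 0.02 over all 10804 genes. Non-overlapping T and B libraries were common, at 82.7% of all genes at 5 CPM or more and 42.6% with T higher, so the separation itself sets these genes little apart. In bulk RNA, fewer cells that carry a transcript and less of it per cell cannot be told apart.

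**Figure D1:**
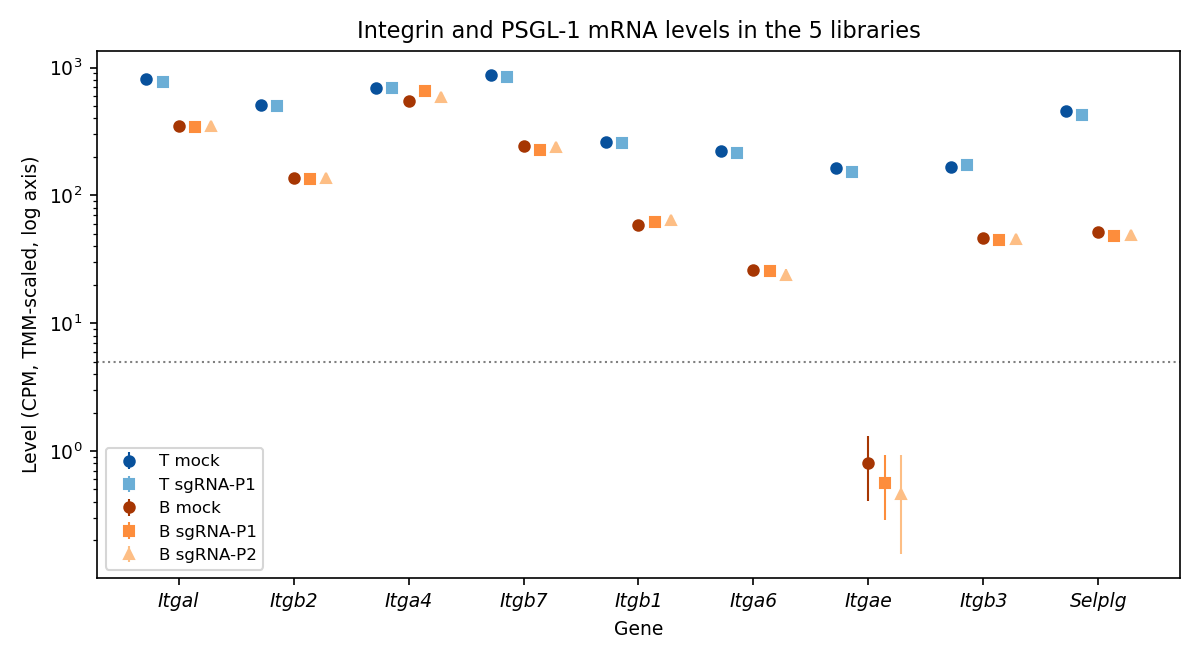
Levels of the 9 genes (log axis, CPM after TMM scaling) in each of the 5 libraries, with 95% counting intervals that are mostly smaller than the symbols; the dotted line is 5 CPM. T libraries (blue) lie above B libraries (orange) for every gene, narrowly for Itga4 (687 against 659 CPM at the nearest) and widely for Itgae (152 against 0.798 CPM).

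The mRNAs of both LFA-1 chains were abundant in both cell types. Itgal, the alphaL gene (chromosome 7, 126895432 to 126934310, plus strand, 32 exon blocks in the deposited coordinates), stood in T cells at 812 (mock) and 773 CPM (sgRNA-P1), and in B cells at 347 (mock), 341 (sgRNA-P1) and 351 CPM (sgRNA-P2). Itgb2, the beta2 gene (chromosome 10, 77366086 to 77401542, plus strand, 16 blocks), stood at 509 and 498 CPM in the T libraries and at 137, 133 and 137 CPM in the B libraries in the same order. Both genes were thus high in T cells, with B libraries that lay within 2.76% of each other. The T against B log2 fold change in mock cells was 1.23 [1.18 to 1.27] for Itgal and 1.89 [1.83 to 1.96] for Itgb2. The mRNA of the beta chain thus differed more than that of the alpha chain.

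Among the alpha4 integrins, the mRNA of the alpha chain differed little between the cell types and those of the beta chains differed much. Itga4 (chromosome 2, 79085770 to 79163467, plus strand, 27 blocks) stood in T cells at 695 (mock) and 687 CPM (sgRNA-P1), and in B cells at 551 (mock), 659 (sgRNA-P1) and 585 CPM (sgRNA-P2). Its highest B library came within 1.04-fold of its lowest T library. Itgb7 (chromosome 15, 102124430 to 102140379, minus strand, 16 blocks) stood at 869.6 and 850.3 CPM in T cells and at 243, 226 and 241 CPM in B cells. Itgb1 (chromosome 8, 129412135 to 129459681, plus strand, 17 blocks) stood at 260.3 and 258 CPM in T cells and at 58.8, 61.6 and 64.3 CPM in B cells. The mock T against mock B log2 fold change was 0.33 [0.30 to 0.37] for Itga4, 1.84 [1.79 to 1.89] for Itgb7 and 2.15 [2.05 to 2.24] for Itgb1. An exon segment of 1124 bases, 8.04% of the counted length of Itga4, is shared with Cerkl on the opposite strand, which stayed at or under 3.70 CPM in every library.

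The sequence before the transcription start was at hand for these 3 genes (RefSeq, build GRCm38.p6), which belong to the alpha4 integrins, and not for the other 6. It is shown because the targeted factor binds octamers and Itga4 differed most from mock among the members at 5 CPM or more in B cells with sgRNA-P1. Capitals mark matches, on either strand, to the octamer ATGCAAAT or to TGTGGT, the core that RUNX factors bind. The lines give the 250 bases before the start of Itga4 (chr2:79255176-79255425, plus strand), Itgb1 (chr8:128685404-128685653, plus strand) and Itgb7 (chr15:102231936-102232185, minus strand).
Itga4: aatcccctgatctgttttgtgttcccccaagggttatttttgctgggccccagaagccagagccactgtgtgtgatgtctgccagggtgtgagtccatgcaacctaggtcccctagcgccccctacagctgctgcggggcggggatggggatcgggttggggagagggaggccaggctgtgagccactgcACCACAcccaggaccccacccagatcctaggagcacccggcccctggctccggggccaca
Itgb1: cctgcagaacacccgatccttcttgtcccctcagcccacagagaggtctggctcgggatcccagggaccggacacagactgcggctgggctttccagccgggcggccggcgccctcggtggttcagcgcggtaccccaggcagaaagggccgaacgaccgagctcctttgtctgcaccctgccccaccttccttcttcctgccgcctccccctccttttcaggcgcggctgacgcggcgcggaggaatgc
Itgb7: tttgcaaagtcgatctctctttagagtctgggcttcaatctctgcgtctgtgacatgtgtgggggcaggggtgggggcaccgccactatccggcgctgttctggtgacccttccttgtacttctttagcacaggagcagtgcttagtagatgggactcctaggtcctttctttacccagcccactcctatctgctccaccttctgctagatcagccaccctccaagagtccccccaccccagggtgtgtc
None of the 3 windows holds the octamer, which 1.6% of 32851 mouse promoter windows of this length hold. Itga4 has 1 RUNX core, on the minus strand with its first base 60 bases before the start, and 14% of all windows have at least 1. The windows are rich in G and C, at 64% in Itga4, 68% in Itgb1 and 56% in Itgb7. No binding was measured in this study.

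Itga6 and Itgae, genes of alpha chains that share their beta chains with alpha4, were far higher in T cells. Itga6 (chromosome 2, 71575960 to 71688760, plus strand, 32 blocks) stood in T cells at 221 (mock) and 216 CPM (sgRNA-P1), and in B cells at 26.0 (mock), 25.4 (sgRNA-P1) and 23.8 CPM (sgRNA-P2). Itgae (chromosome 11, 72981409 to 73038272, plus strand, 31 blocks), the CD103 gene, stood at 163 and 152 CPM in T cells. In B cells it had 27 reads in mock, 27 with sgRNA-P1 and 13 with sgRNA-P2, which are 0.798 [0.409 to 1.31], 0.560 [0.287 to 0.922] and 0.462 [0.157 to 0.929] CPM. Its mock T against mock B log2 fold change was 7.62 [6.96 to 8.64]. Of the 10 T cell markers in the B libraries, Lck stood at 45.2 to 46.8 CPM, Cd5 at 2.07 to 2.84 CPM and Lat at 1.66 to 2.13 CPM, above Itgae, while Cd3d, Cd3e, Cd3g and Thy1 were at 0.207 CPM or less. What T cell RNA contributes to the B cell reads of Itgae was not tested. In T cells, the CD8 gene Cd8a was at 396 and 401 CPM and Cd4 at 656 and 655 CPM, so both lineages were present in each T library, and Itgae is known from CD8 and regulatory T cells.

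Itgb3, best known from platelets, was higher in T cells too. It lies on chromosome 11 (104498826 to 104561302, plus strand, 16 blocks) and stood in T cells at 167 (mock) and 172 CPM (sgRNA-P1), and at 46.1, 44.9 and 45.8 CPM in the B libraries. The platelet genes Pf4, Ppbp, Gp1bb, Gp9, Gp6 and Treml1 had no read in either T library, and the platelet markers summed to 9.55 and 11.1 CPM there and to 7.08 to 7.72 CPM in B libraries, in which Gp1ba led. In T libraries the sum came from Itga2b (5.55 and 6.46 CPM), the alphaIIb gene, and Gp1ba, and its part in the level of Itgb3 was not tested. The gene of its partner alphav, Itgav, ran the other way, at 39.9 and 39.3 CPM in T cells and 50.3, 54.3 and 50.7 CPM in B cells. The mock T against mock B log2 fold change was 1.85 [1.75 to 1.97] for Itgb3 and -0.34 for Itgav.

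Selplg (chromosome 5, 113956597 to 113970705, minus strand, 3 blocks) had the largest log2 fold change between the mocks after Itgae. Its level in T cells was 456 (mock) and 427 CPM (sgRNA-P1), against 51.5, 48.1 and 49.2 CPM in the B libraries, a log2 fold change of 3.15 [3.05 to 3.25] between the mocks. For Itga6 that log2 fold change was 3.09 [2.95 to 3.23], with an interval that overlaps that of Selplg. The lowest T library was 8.31-fold above the highest B library for Selplg and 8.32-fold for Itga6. Sele and Selp, the endothelial and platelet selectin genes, were at 3.67 CPM or less and 1.28 CPM or less in every library.

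The T against B difference could be tested once the guides were allowed for. An additive model over the 5 libraries (edgeR's quasi-likelihood test, with terms for cell type and for either guide, 2 residual degrees of freedom, Benjamini-Hochberg over 17581 genes) called all 9 genes higher in T cells, where it called 64.2% of all genes in either direction and 32.4% higher in T cells. Itgae had a log2 fold change of 7.98 (approximate SE 0.0975, edgeR adjusted p = 6.16e-18), Selplg 3.13 (0.0487, adjusted p = 9.59e-17), Itga6 3.10 (0.0537, adjusted p = 3.39e-16) and Itgb1 2.07 (0.0510, adjusted p = 2.14e-14). Itgb3, Itgb2 and Itgb7 had 1.88, 1.87 and 1.84, and Itgal 1.17. Itga4 had 0.21 (0.0616, edgeR adjusted p = 0.00738), and its call was lost without the mock T library (0.13, edgeR adjusted p = 0.153) or without the mock B library (0.13, edgeR adjusted p = 0.194). No combination of cell type and guide had another library. The residual spread thus holds differences between the guides and in guide effect between cell types, with any technical spread. edgeR also pools spread over genes, so the p-values rest on more than the 2 residual degrees of freedom. Nothing in the labels says that the libraries came from separate animals or cultures, and these p-values do not measure a spread between replicates.

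Levels of different genes can be compared per length of exon. On that scale (CPM per kb) Itgb7 was the highest of the 9 in every library, at 314 and 307 in T cells and 87.6, 81.5 and 87.0 in B cells. In mock T cells it was followed by Itgb2 (167), Itgal (124), Selplg (107), Itgb1 (63.8), Itga4 (49.7), Itgae (35.6), Itgb3 (28.3) and Itga6 (24.2). The B mock order was Itgb7, Itgal (52.9), Itgb2 (44.9), Itga4 (39.4), Itgb1 (14.4), Selplg (12.0), Itgb3 (7.81), Itga6 (2.84) and Itgae (0.174). The order was the same with the guides, except that Itga4 (47.1) passed Itgb2 (43.7) in B cells with sgRNA-P1. No pair of neighbours in either order had overlapping counting intervals, though without separate replicates the spread between cultures is unknown. The counted length is that of all merged exons of a gene, so an isoform shorter than the merged model would be set too low.

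The balance between the mRNAs of chains that pair differed between the cell types. The counts are of RNA, and the chains themselves were not measured in them. Itgal was at 0.742 [0.728 to 0.756] of Itgb2 per length in mock T cells and at 1.18 [1.12 to 1.24] in mock B cells, and both other B libraries were at 1.19. Itga4 was at 0.780 [0.761 to 0.798] of Itgb1 in mock T cells and at 2.74 [2.57 to 2.93] in mock B cells, below 1 in T cells and above 1 in B cells. Against Itgb7, Itga4 was at 0.158 in mock T cells and 0.450 in mock B cells, below 1 in both. Whether such a ratio lies above or below 1 depends on the division by merged exon length: in CPM without it, mock T cells had 1.60 for Itgal over Itgb2 and 2.67 for Itga4 over Itgb1, and mock B cells had 2.27 for Itga4 over Itgb7. The change of a ratio between libraries does not depend on this fixed length. Itgb7 exceeded Itgb1 4.92-fold in mock T cells and 6.09-fold in mock B cells, and the ratio of Itgb2 to Itgb7 was nearly the same in both, at 0.531 [0.521 to 0.541] and 0.512 [0.487 to 0.539].

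**Figure D2:**
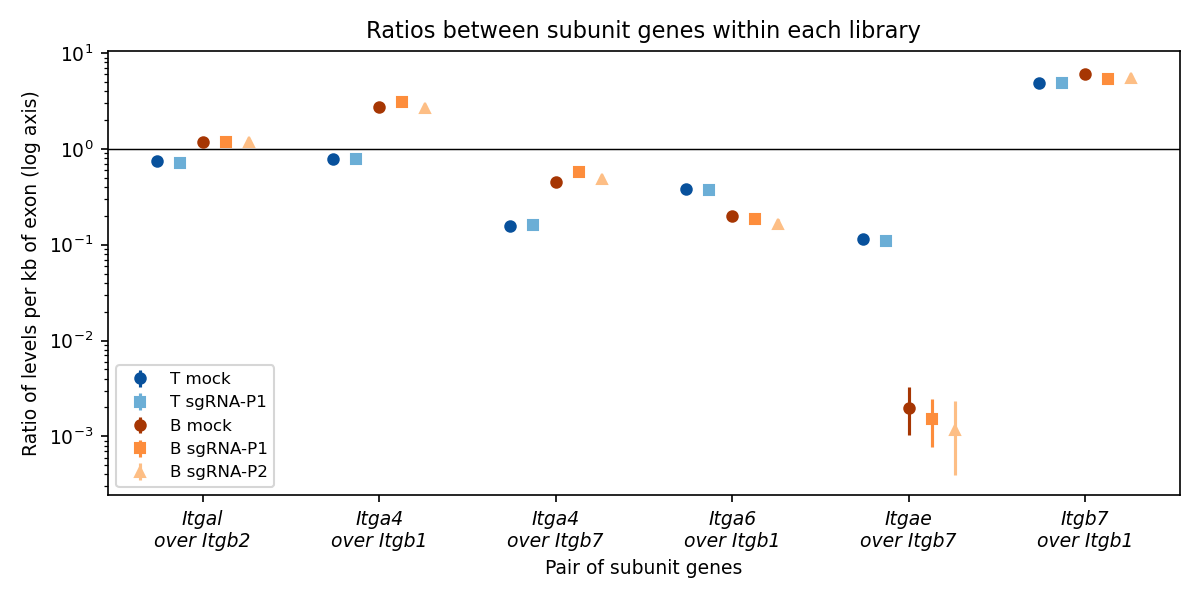
Ratios of levels per kb of exon between pairs of subunit genes (log axis) in each library, with 95% counting intervals. Itgal over Itgb2 and Itga4 over Itgb1 lie below 1 in T libraries and above 1 in B libraries, and Itgae over Itgb7 is 0.114 in mock T cells and 0.00199 in mock B cells.

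In T cells with sgRNA-P1, none of the 9 genes was 1.5-fold from mock, where 0.11% of all genes were. The largest differences were in Itgae, with a log2 fold change of -0.10 [-0.16 to -0.04], Selplg, with -0.09 [-0.13 to -0.06], and Itgal, with -0.07 [-0.10 to -0.04]. Itgb7 was at -0.03 [-0.06 to -0.01], and the intervals of Itga4 (-0.02), Itgb1 (-0.01), Itgb2 (-0.03), Itga6 (-0.03) and Itgb3 (0.05) included 0. The counting intervals of all 9 lay within 1.12-fold of mock. The median of the 9 was -0.03, and that of all genes was -0.02. Lower values were found in 8 of 9, or in 7 of 9 when libraries were scaled by total reads, while 41.4% of all genes were higher.

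In B cells with sgRNA-P1, Itga4 stood out among the 9, at 659 CPM [649 to 669] against 551 CPM [540.2 to 563] in mock. Its log2 fold change was 0.26 [0.22 to 0.29], or 1.19-fold, above 94.5% of all genes at 5 CPM or more. Itgb7 was lower, at -0.10 [-0.16 to -0.05]. The intervals of the other 6 genes at 5 CPM or more included 0, with Itgb1 at 0.07, Itgal at -0.02, Itgb2 at -0.04, Itga6 at -0.03, Itgb3 at -0.04 and Selplg at -0.10. No member was 1.5-fold from mock, where 0.735% of all genes were. Itgae was under 5 CPM in every B library and enters no count for B cells.

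Itga4 also has the lowest GC content of the 9 (41.1% in its longest transcript, against 58.0% in Itgb7), and in this comparison log2 fold changes fell with GC content across all genes (Spearman's rho across genes -0.50). With a trend on GC content and length subtracted, Itga4 was at 0.11 and Itgb7 at 0.00. In T cells with sgRNA-P1 the same correlation was -0.23, and in B cells with sgRNA-P2 it was -0.17. Itga4 also has the longest merged exons of the 9 (13978 bases). In B cells with sgRNA-P1 log2 fold changes rose with length across all genes (Spearman's rho 0.27). The subtraction did not separate length from GC content. How far base composition or length makes up the difference in Itga4 was not tested beyond it.

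**Figure D3:**
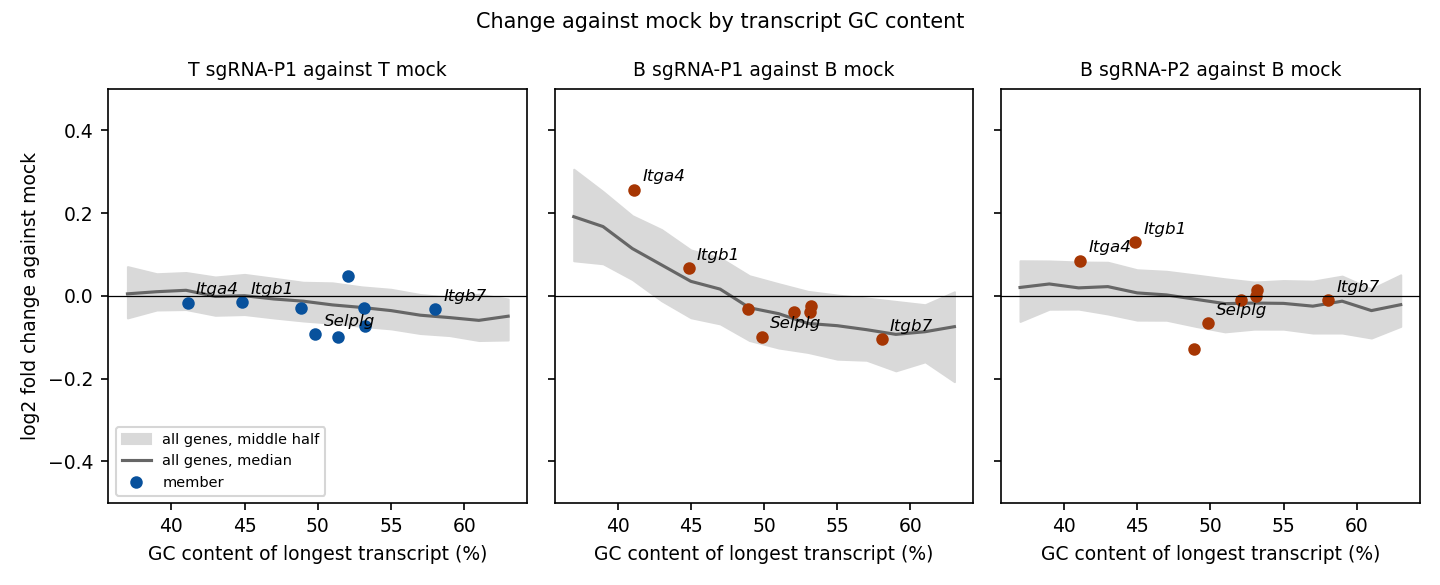
Log2 fold change against mock by GC content of the longest transcript, with the median (line) and quartiles (band) of all genes at 5 CPM or more in bins of 2 percentage points, and the 9 genes as points (8 in B cells). The line falls with GC content in B cells with sgRNA-P1, where Itga4 at 41.1% GC lies highest of the points, at 0.26.

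In B cells with sgRNA-P2, the 8 genes at 5 CPM or more were again close to mock, and the comparison shares its mock library with the one above. Itgae had 13 reads against 27, a log2 fold change of -0.73 with an interval that included 0 [-2.53 to 0.65]. Itga4 was at 0.09 [0.04 to 0.13], the only interval of 8 that excluded 0, and at 0.05 with the trend subtracted. Itgb1 was at 0.13 [-0.00 to 0.26] and Itga6 at -0.13 [-0.34 to 0.08], while Itgal (0.01), Itgb2 (0.00), Itgb7 (-0.01), Itgb3 (-0.01) and Selplg (-0.07) were nearer 0. None was 1.5-fold from mock, where 0.278% of all genes were, and the intervals of the 8 lay within 1.26-fold. Median log2 fold changes were -0.0047 over the 8 genes and -0.0036 over all genes.

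**Figure D4:**
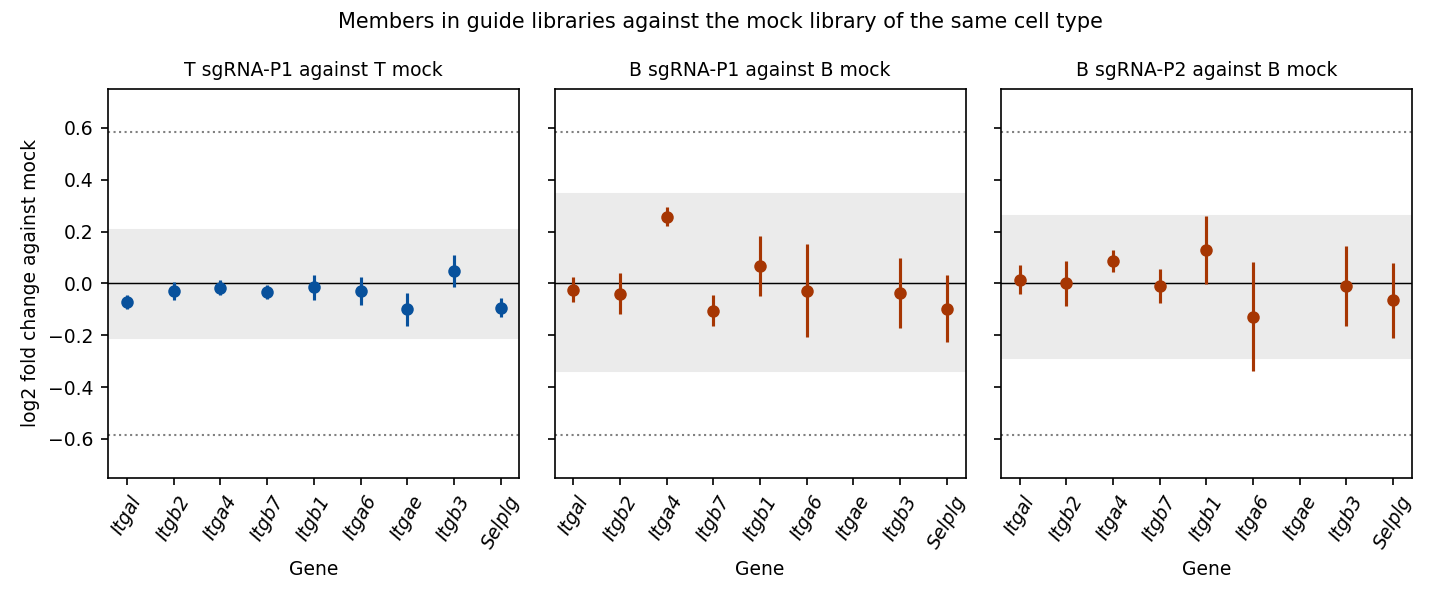
Log2 fold changes of the 9 genes against mock in each guide library, with 95% counting intervals; the grey band spans the middle 95% of all genes at 5 CPM or more and dotted lines mark 1.5-fold. Every point lies inside the grey band, and Itga4 in B cells with sgRNA-P1 (0.26) lies farthest from 0; Itgae is not drawn in B cells.

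Between the guides in B cells, the level of Itga4 with sgRNA-P1 exceeded that with sgRNA-P2, at a log2 fold change of 0.17 [0.13 to 0.21] (0.06 with the trend subtracted), and Itgb7 was lower, at -0.09 [-0.16 to -0.03] (-0.02 with the trend subtracted). The other 6 intervals included 0, and none of the 8 was 1.5-fold apart, where 0.418% of all genes were. In the additive model over the 5 libraries, the effect of either guide passed for none of the 9 genes (edgeR's quasi-likelihood test, adjusted p = 0.9996 for each), and for 5 of 17581 genes (0.0284%), among them Pou2f1 (-0.92, edgeR adjusted p = 5.66e-06). At an unadjusted p under 0.05 the model had 427 genes (2.43%) and none of the 9, and DESeq2 with the same terms called 4 genes and none of the 9. The guide term assumes a common effect of both guides, alike in either cell type. For Itga4, T cells gave a log2 fold change of -0.02 under sgRNA-P1, while B cells gave 0.26 under that guide and 0.09 under sgRNA-P2. The model counts such differences as residual spread, so it cannot decide on an effect that differs between guides or cell types. A p-value over the threshold does not show that the guides left these genes unaltered. The intervals above give the sizes that counting allows.

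The genes around these receptors were read from lists by role, and the difference between T and B cells varied between them. Of 18 other integrin subunit genes, 9 reached 5 CPM in a mock library, 7 of them past 1.5-fold toward T cells and none toward B cells; none but Itgav exceeded 20.7 CPM, the level of Itga7 in mock T cells (no read in mock B cells), and Itga10 was at 6.36 CPM in T cells and 5.76 CPM in B cells, with Itga2 at 10.8 and 0.650 CPM. The 7 subunit genes past 1.5-fold reached 5 CPM in mock T cells only, and were at 2.45 CPM or less in mock B cells. The filter on the higher library thus set their direction, and their count does not measure a T cell bias. Among 22 genes of integrin activation, 19 reached 5 CPM, with 7 past 1.5-fold toward T cells and 4 toward B cells. Of all genes at 5 CPM or more, 18.6% passed toward T cells and 37% in either direction. The filamin gene Flna (2174 and 1288 CPM), the talin gene Tln1 (1193 and 826 CPM), Cytip (719 and 402 CPM), which binds cytohesin, and Stk4 (632 and 402 CPM), a kinase that acts with RAPL, were higher in T mock than in B mock (values in that order), Tln1 by less than 1.5-fold. The adaptor genes Fyb (512 and 0.532 CPM) and Skap1 (258 and 1.95 CPM) differed most, and Fermt3, the kindlin of blood cells, was at 299 and 312 CPM.

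The lists of the adhesion complex and of selectin ligand synthesis held genes past 1.5-fold in both directions, and their counts are to be read against the 37% of all genes that passed. Of 16 genes of the adhesion complex, 12 reached 5 CPM, 2 toward T cells and 3 toward B cells: Ptk2b, the gene of the kinase PYK2 (299 CPM in T mock, 663 CPM in B mock) and the scaffold gene Nedd9 (158 and 343 CPM) were higher in B cells, and the alpha-actinin gene Actn1 (466 and 9.81 CPM) in T cells, while Actn4 was at 251 and 169.9 CPM. Of 12 genes that build selectin ligands, 10 reached 5 CPM, 3 toward T cells and 5 toward B cells. Gcnt1, which branches O-glycans, was at 16.0 CPM in T cells and 171 CPM in B cells, C1galt1 at 136 and 241 CPM, B4galt1 at 190.5 and 90.5 CPM and the tyrosine sulfotransferase gene Tpst2 at 108 and 51.9 CPM.

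Of 14 counter-receptor genes only Icam1 (42.1 and 58.7 CPM) and Icam2 (59.2 and 86.9 CPM) reached 5 CPM, both lower in T cells by less than 1.5-fold, with Cdh1 and Vcam1 at 3.18 CPM or less and 1.47 CPM or less in every library. Of 11 membrane partners 10 reached 5 CPM, 3 toward T cells and 2 toward B cells, the tetraspanin gene Cd37 among the latter (271 and 1452 CPM), while Cd53 (603 and 609 CPM), Cd47 (293 and 269 CPM) and Tspan32 (221 and 157 CPM) were less far apart. Between the mocks, 37% of all genes at 5 CPM or more passed 1.5-fold, and 18.6% did so toward T cells. In the guide comparisons no gene of these 6 lists at 5 CPM or more was 1.5-fold from mock. Of all genes, 0.11% (T cells with sgRNA-P1) to 0.735% (B cells with sgRNA-P1) were. List medians against mock ran from -0.06 to -0.02 in T cells with sgRNA-P1, from -0.09 to 0.05 in B cells with sgRNA-P1 and from -0.25 to 0.01 in B cells with sgRNA-P2, where the lowest was that of the 2 other integrin genes at 5 CPM or more, Itga10 (4.05 CPM against 5.76 CPM in mock) and Itgav (50.7 against 50.3 CPM).

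**Figure D5:**
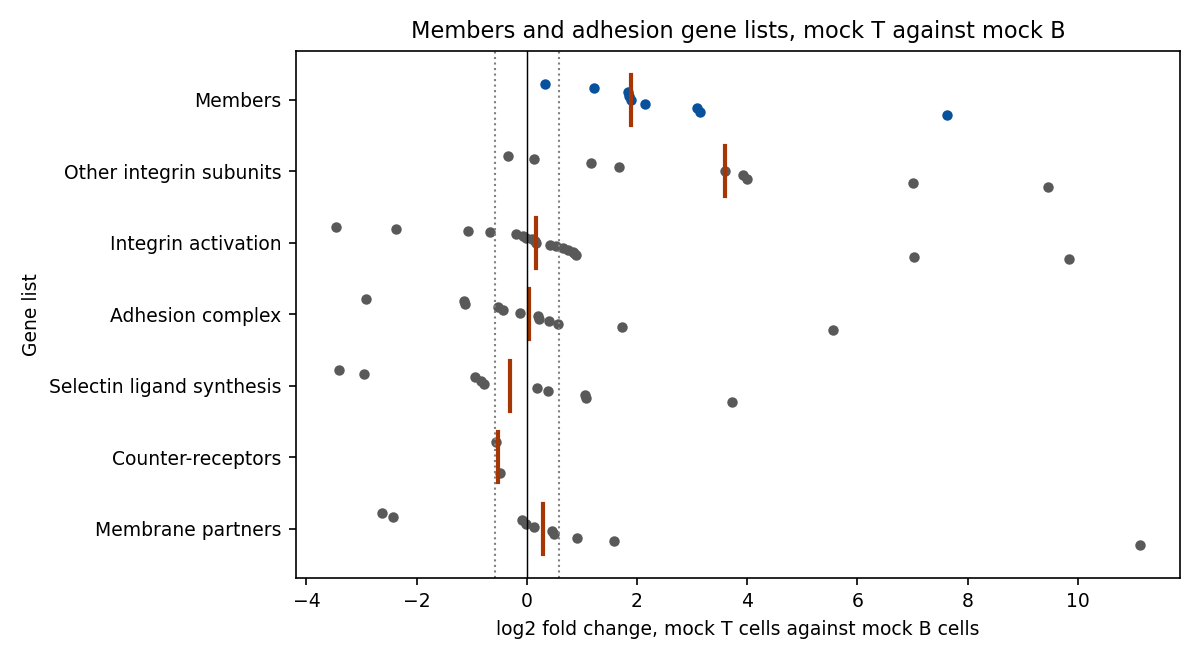
Log2 fold changes between mock T cells and mock B cells for the 9 genes (blue) and for genes at 5 CPM or more of the 6 lists (grey), with each list's median (bar); dotted lines mark 1.5-fold. The 9 genes have a median of 1.89 and none lies below 0. List medians run from -0.52 (counter-receptors, 2 genes) to 3.60 (other integrin subunits, 9 genes), with selectin ligand synthesis at -0.30. Of those 9 subunit genes, 7 reached 5 CPM in mock T cells only, so the filter set their direction and 3.60 is not comparable with 1.89.

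Genes with the most similar pattern over the 5 libraries were found by the Euclidean distance between log2 levels centred on each gene's mean, among 10098 genes. Itgb3 was nearest to Arhgap9 (distance 0.0395) and then to Itgb2 (0.0553). Itgb2 was nearest to Arhgap9 (0.0412) and Gtf2i (0.0464), and Itgb3 was not among its 2 nearest genes. Itgal was nearest to Ptpn7 (0.0273) and Rasal3 (0.0387), Itgb7 to Pik3ip1 (0.0320) and Gtf2i (0.0356), and Itgb1 to Clip1 (0.0386) and Dusp5 (0.0660). Itga6 was nearest to Notch1 (0.0598) and Tnik (0.0803), Selplg to Palm3 (0.0848) and Plcg1 (0.0886), and Itga4 to Naf1 (0.0336) and Zfp280c (0.0359). With 5 points these distances mostly reflect the gap between T and B cells.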

How the data were processed

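Poly(A) RNA of mouse spleen T and B cells was sequenced by the authors, who deposited 1 table of raw read counts per gene in the layout of featureCounts, with the merged exon length of each gene. The submitters' processing notes name HISAT2, featureCounts and the builds hg38 and mm39, without versions, annotation, strand setting or treatment of multimapping reads. The columns of each group proved to be 1 library divided in a fixed proportion, so they were summed. The tests planned for the guide comparisons therefore reduce to values: log2 fold changes of TMM-scaled CPM (edgeR 4.0.16, R 4.3.3) after adding 1 read, for genes at 5 CPM or more in the higher library, with 1.5-fold as the size rule. In genes under 10 reads, 72.0 to 74.8% of totals were even after the read lost by rounding was restored, so reads were divided by 2 before exact 95% Poisson and conditional intervals, which cover counting error only. An additive model (edgeR; DESeq2 1.42.0 as alternative) gave p-values over the 5 libraries; its SE is the fold change divided by the root of F. All 9 genes, Pou2f1, up to 4 genes per list by mean level and 2 nearest genes per member were named, and a few results under this rule are not reported here; Fyb, Skap1, Fermt3 and the markers were chosen after their values were seen. The genes and lists were chosen with earlier results of these data known. GC content came from GENCODE M21 transcripts, for 96.4 to 96.6% of genes tested. Steps were tested on simulated counts. Alternatives were other scalings, filters, priors, single columns, a length and GC trend, and leaving out each library.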

Additional observations from a re-analysis of the deposited data

Results flagged for a closer look

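Of the 8 genes at 5 CPM or more in both cell types, 3 had sgRNA-P1 effects that differed in sign between T and B cells. Each effect came from 1 guide and 1 mock library, and the difference was not tested. How many of all genes show opposite signs was not counted. Of all genes, 41.4% were higher than mock in the T cell comparison and 48% in the B cell comparison. Without that count, 3 of 8 cannot be called unusual. For Itga4 the log2 fold change was -0.02 in T cells and 0.26 in B cells, a difference of -0.27, the largest of the 3. For Itgb1 the values were -0.01 and 0.07, a difference of -0.082, and for Itgb3 0.05 and -0.04, a difference of 0.086. For Itgb1 and Itgb3 both counting intervals included 0, and for Itga4 that in T cells did. With the length and GC trend subtracted, Itga4 was at -0.02 in T cells and 0.11 in B cells, Itgb1 at -0.02 and 0.03, and Itgb3 at 0.08 and 0.0079, no longer of opposite sign. With total reads in place of TMM, Itgb1 was at 0.00092 and 0.042, also of 1 sign.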

How the results depend on the processing

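Of the 9 genes, 8 passed 1.5-fold between mock T and mock B cells under every alternative run, and none did in a guide comparison, except Itgae in B cells with sgRNA-P2 (1 gene) when no filter on level was applied. Without that filter 6560, 6220, 7124, 6413 and 13517 genes passed 1.5-fold in T cells with sgRNA-P1, B cells with sgRNA-P1, B cells with sgRNA-P2, between the guides and between the mocks, against 11, 74, 28, 42 and 3997 with it; at 20 CPM or more 6, 15, 2, 7 and 2531 did. Between the mocks, 13517 was out of 25666 genes and 3997 out of 10804. At 20 CPM or more, 2531 was out of 7846. The other alternatives gave 3981 of 10804 to 4368 of 10420 genes between the mocks. The guide comparisons held 23004 to 24970 genes without the filter, 10007 to 10062 with it and 7170 to 7211 at 20 CPM or more. After subtraction of a trend on length and GC content 38 genes passed in B cells with sgRNA-P1 and 24 between the guides. Total reads in place of TMM changed no call of the 9. The effect of either guide over the 5 libraries was called for 2 genes with total reads and 32 without a filter, against 5; leaving out 1 library gave 3 genes (without T cells with sgRNA-P1) to 18 (without B cells with sgRNA-P1), with 8 without mock T cells and 14 without B cells with sgRNA-P2. It was called for none of the 9 in any of these. The cell type call of Itga4 was lost without either mock library, as given above, and the other 8 kept theirs. Without division by length, the ratios turned round for Itgal over Itgb2 in mock T cells (1.60), Itga4 over Itgb1 in mock T cells (2.67), Itga4 over Itgb7 in mock B cells (2.27) and Itga4 over Itgal in mock B cells (1.59). No paired analysis was possible because the 2 columns of each group are parts of 1 library; for the same reason, using either column alone moved no call of the 9. A trend on length and GC content also moved 14 of 42 fold changes of the 9 genes outside their intervals, and some small values changed sign, such as Itgb7 in T cells with sgRNA-P1 (0.0094). The cause of these shifts was not tested.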
